A study of Mus musculus with 6 samples.

Results

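The genes described here are the plasma membrane and lysosomal amino acid carriers of the mouse SLC families 1, 3, 6, 7, 36, 38 and 43, with the creatine, GABA and monoamine carriers that share the SLC6 family, measured by mRNA sequencing in activated splenic B cells. The families were picked with earlier results of these data known, and their members were then taken by symbol, as every row of the count table whose name is one of these families and a number (which leaves out *Slc6a20a* and *Slc6a20b*), except the cystine transporter gene *Slc7a11*, which left 58 genes of 23420. Splenic B lymphocytes of C57Bl/6J background were kept in IMDM with 5% FCS for 8 h with anti-IgM at 10 µg/ml, which cross-links the B-cell receptor, and with IL-4 at 20 ng/ml, and FICZ, a high-affinity ligand of the aryl hydrocarbon receptor (AhR), was present at 250 nM over the last 4 h. The groups differed in genotype, with 3 Ahr+/+ and 3 Ahr-/- samples. Each group came from 3 mice per the study, and p-values measure the spread between these animals and their cultures. The Ahr-/- mice of the study carry a germline null allele (tm1Bra, a B6.129 strain), so that every cell of the animal lacks the receptor and, per the study's methods, animals older than 8 weeks were matched for age. No unstimulated cells and no cells without FICZ were part of the series, so each difference below is between genotypes under 1 stimulus.

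Amino acid carriers set how quickly a lymphocyte can grow after activation. Resting B cells take up little amino acid, and antigen receptor signals raise the carriers of glutamine, large neutral amino acids and cationic amino acids, which feed protein synthesis and the mTORC1 kinase. The carriers differ in what they move and in what drives them: SLC7 light chains work as exchangers and mostly need an SLC3 heavy chain to reach the membrane, SLC1, SLC6 and SLC38 proteins are mainly sodium-driven, and SLC36 and several SLC38 proteins sit on lysosomes. Tryptophan, the parent of FICZ, enters cells by the large neutral exchanger of *Slc7a5* and *Slc3a2*.

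Of the 58 genes, 12 had no counts in any library and 10 had between 1 and 9 counts in total, with at most 4 in a library. The other 36 entered the test. In Ahr-/- B cells, 7 of these 36 were higher and 4 were lower than in Ahr+/+ cells at an adjusted p under 0.05 (edgeR quasi-likelihood test, adjusted over all 13682 genes tested). The 4 that fell were *Slc6a9*, *Slc6a6*, *Slc38a1* and *Slc3a2*, which carry glycine, taurine and glutamine or hold light chains at the membrane. The 7 that rose were *Slc7a2*, *Slc1a2*, *Slc36a4*, *Slc7a7*, *Slc43a1*, *Slc43a3* and *Slc38a7*. The share called was 30.6% of the 36, against 17.9% of all genes tested, of which 9.79% were higher and 8.13% lower. No overlap between the genotypes was seen for 15 of the 36 (41.7%), against 33.5% of all genes tested, and all 11 genes that passed the test were among the 15. The median log2 fold change of the 36 was 0.11, and that of all genes tested was 0.00.

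**Figure D1:**
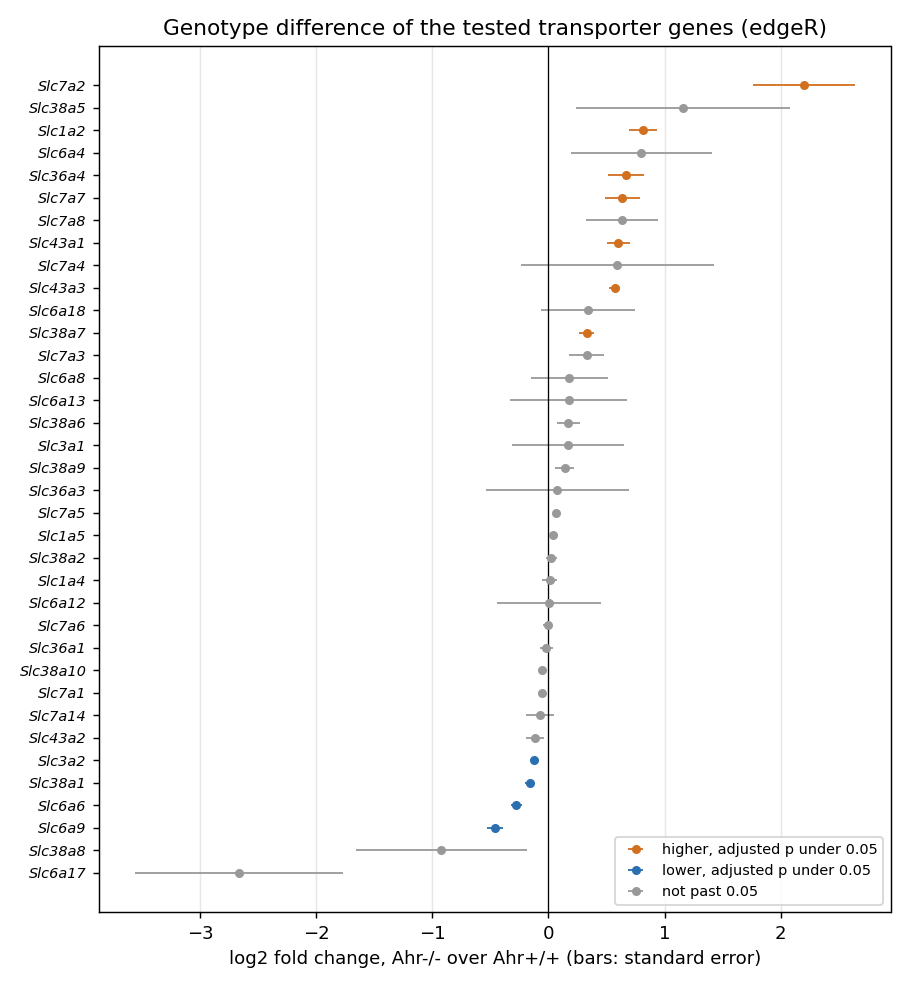
Log2 fold change of Ahr-/- over Ahr+/+ (horizontal axis) for the 36 transporter genes tested (vertical axis), from the edgeR fit, with standard errors as bars and colours marking an adjusted p under 0.05. The 4 genes that fell lie between -0.46 and -0.13 with short bars, the 7 that rose lie between 0.33 and 2.20, and the widest bars belong to genes with few counts.

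As a check of the labels, *Ahr* itself had 13175 ± 682 normalized counts in Ahr+/+ against 9174 ± 472 in Ahr-/- libraries (SD, n = 3 each), a log2 fold change of -0.52 (SE 0.047, edgeR adjusted p = 7.1e-06). The count covers the whole gene and not the altered part alone, and which transcripts make up the count in Ahr-/- libraries was not tested. Libraries held between 22095096 and 53648787 counts on genes, with an Ahr-/- library at either end. Normalized counts here are counts scaled to the mean library after TMM correction, and 3 counts corresponded to between 2.13 and 5.15 normalized counts. B-cell markers were abundant, and the sum over 8 of them ran from 102230 to 111540 in Ahr+/+ and from 123470 to 131100 in Ahr-/- libraries, with 6 of the 8 higher at an adjusted p under 0.05, against 9.79% of all genes tested. In such bulk samples, fewer cells of a type and less RNA per cell cannot be told apart.

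Messenger RNA of a few carriers made up most of the signal in both genotypes. Levels per length were set as RPKM, counts scaled for library size and for the length of annotated exons in kilobases. *Slc1a5*, the sodium-dependent exchanger of glutamine and small neutral amino acids, had the highest level at 264 ± 12.8 RPKM in Ahr+/+ cells, followed by *Slc3a2* at 119 ± 2.36, *Slc7a5* at 79.3 ± 0.748, *Slc38a2* at 65.8 ± 3.47 and *Slc7a1* at 35.5 ± 0.445 RPKM (SD, n = 3). These 5 genes held 77.2% of the summed RPKM of all 58. Levels of *Slc7a1*, *Slc38a1* (35.3 ± 1.33) and *Slc7a6* (35.2 ± 1.24) lay within their SDs of each other, whereas the 4 above them were each separated by more than their SDs. In all, 10 genes reached 10 RPKM and 19 reached 1 RPKM in Ahr+/+ cells.

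**Figure D2:**
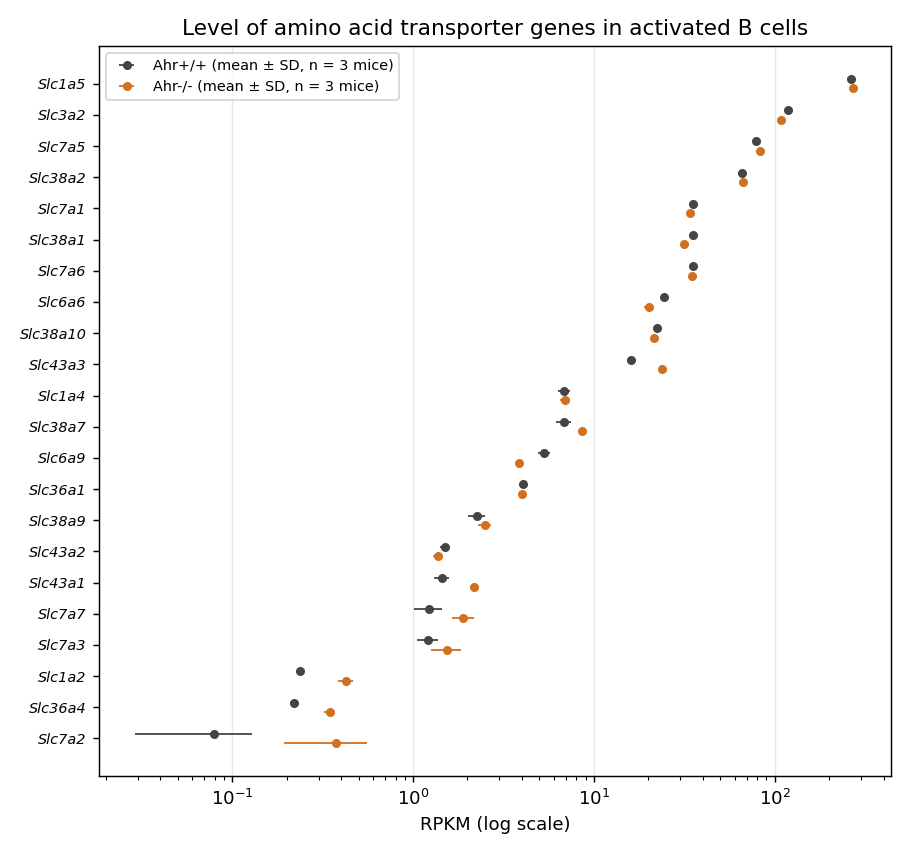
Level of the transporter genes in RPKM on a log scale (horizontal axis) in Ahr+/+ and Ahr-/- B cells, as mean ± SD of 3 libraries, for the genes at 1 RPKM or more in Ahr+/+ cells and the lower ones that passed the test. *Slc1a5* leads at 264 RPKM in Ahr+/+ cells, and *Slc7a2* is lowest of those drawn, at 0.0792 RPKM in Ahr+/+ and 0.375 RPKM in Ahr-/- cells.

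By level, the calls are given as a description, since the classes are small and were not compared by a test, beside the 9.79% higher and 8.13% lower of all genes tested. The classes were cut on the level in Ahr+/+ cells, which also enters the fold change, so class and direction are not independent. Of the 10 genes at 10 RPKM or more, 3 fell and 1 rose, and the median size of their log2 fold change was 0.06. Of the 9 between 1 and 10 RPKM, 1 fell and 3 rose. Of the 17 tested below 1 RPKM, none fell and 3 rose, and the median size of their log2 fold change, 0.59, also carries the larger counting error of low genes. Over all 58 genes together, the normalized counts summed to between 109090 and 113340 in Ahr+/+ and between 108830 and 112230 in Ahr-/- libraries, so the genotypes overlapped in the total.

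Large neutral amino acids such as leucine, tryptophan and phenylalanine enter by system L, formed by the light chain of *Slc7a5* (LAT1) or *Slc7a8* (LAT2) with the heavy chain of *Slc3a2* (CD98), or by the heavy-chain-independent carriers of the SLC43 family. *Slc3a2* (chr19:8706882-8723369, minus strand, GRCm38) had 13459, 13878 and 13976 normalized counts in Ahr+/+ libraries against 12689, 12410 and 12772 in Ahr-/- libraries. All Ahr-/- values lay below all Ahr+/+ values, and the mean fell by 8.34% (log2 fold change -0.13, SE 0.034, edgeR adjusted p = 0.022). The call depended on single libraries: the adjusted p was 0.052 without Ahr+/+ replicate 2, 0.097 without Ahr+/+ replicate 3 and 0.12 without Ahr-/- replicate 2, and 0.061 when libraries were scaled by size alone.

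*Slc7a5* (chr8:121881150-121907694, minus strand) had 10612, 10805 and 10761 normalized counts in Ahr+/+ against 11128, 11213 and 11414 in Ahr-/- libraries. Here the Ahr-/- values were all above the Ahr+/+ values, but the difference of 0.07 on the log2 scale did not pass the test (95% interval -0.0029 to 0.14, edgeR adjusted p = 0.19, between 0.064 and 0.38 over the alternatives). The interval holds 0 and does not reach the fall of *Slc3a2*. Within a library, the normalized counts of *Slc7a5* were 0.788, 0.779 and 0.77 of those of *Slc3a2* in Ahr+/+ cells and 0.877, 0.903 and 0.894 in Ahr-/- cells. This ratio does not depend on the scaling between libraries, and the genotypes did not overlap in it (exact two-sided permutation test, p = 0.1). This is the smallest p that 3 against 3 allows, so that no ratio of the 5 computed can pass after adjustment. With all *Slc7a5* values higher and all *Slc3a2* values lower in Ahr-/- libraries, the lack of overlap was fixed in advance and adds no further result.

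*Slc43a1* (chr2:84838850-84863594, plus strand), which encodes the system L carrier LAT3, had 179, 210.3 and 212 normalized counts in Ahr+/+ against 295, 294 and 321 in Ahr-/- libraries. The values rose 1.52-fold without overlap (log2 fold change 0.60, SE 0.098, edgeR adjusted p = 8.7e-04). Its neighbour *Slc43a3* (chr2:84936579-84958509, plus strand) is placed in the family by sequence but is best known as a purine nucleobase carrier. It had 1653, 1497 and 1635 normalized counts in Ahr+/+ against 2356.5, 2315 and 2435 in Ahr-/- libraries. With a rise of 1.49-fold (log2 fold change 0.57, SE 0.046, edgeR adjusted p = 2.5e-06), it had the smallest adjusted p of all transporter genes and passed under all 14 alternatives run, of which the prior count cannot change a p. The remaining system L genes, *Slc7a8* and *Slc43a2*, did not pass, with log2 fold changes of 0.64 (SE 0.31) and -0.11 (SE 0.077).

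**Figure D3:**
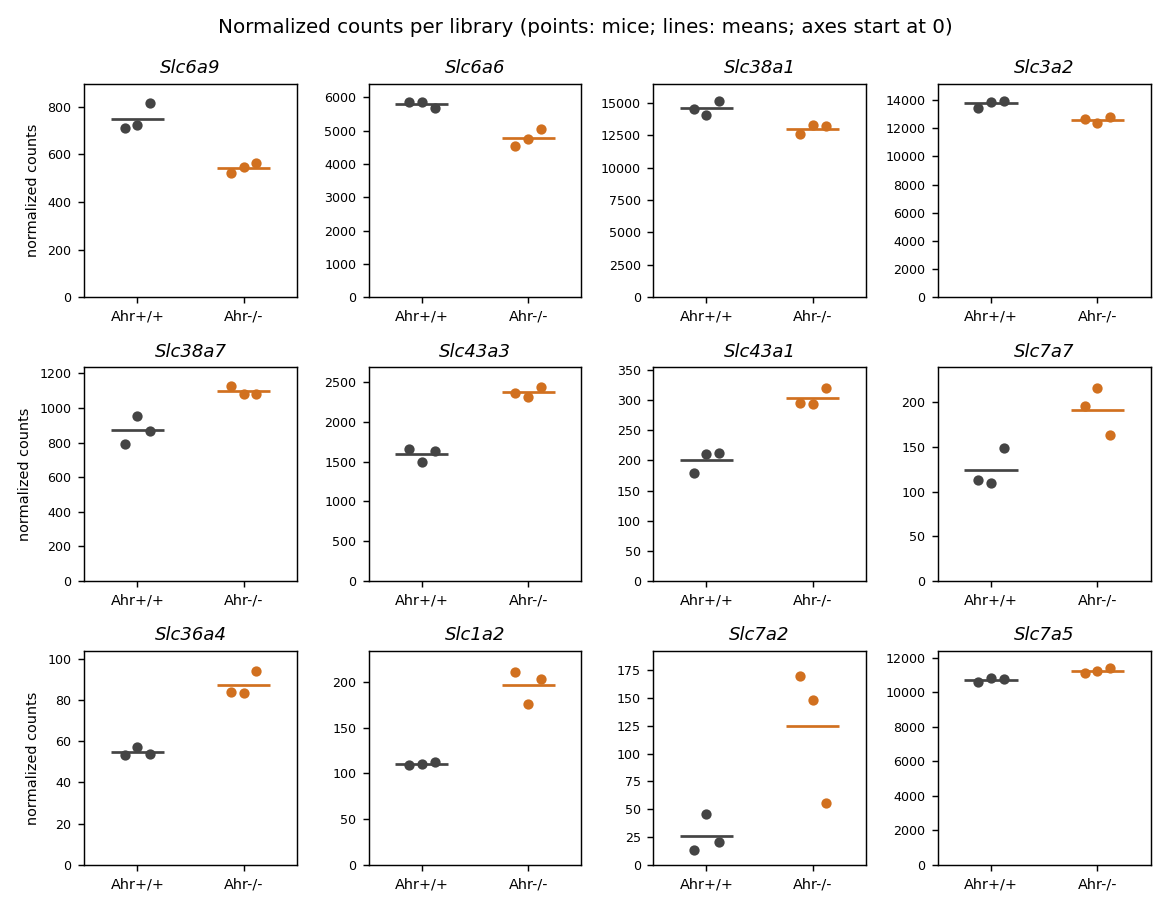
Normalized counts (vertical axis, starting at 0 in each panel) of the 11 genes that passed the test and of *Slc7a5*, which did not, with 1 point per library and a line at the mean of each genotype. In all 12 panels the points of the genotypes do not overlap, the distance is narrow for *Slc3a2* and *Slc7a5*, and the points of *Slc7a2* are widely spread, from 13.6 to 45.3 in Ahr+/+ and from 55.6 to 169.9 in Ahr-/- libraries.

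Cationic amino acids, arginine and lysine, are taken up by the CAT carriers, of which *Slc7a1* is the general form and *Slc7a2* the inducible form known from macrophages and liver. *Slc7a1* (chr5:148327410-148399904) was near its Ahr+/+ level, with 9809 ± 123 normalized counts against 9419 ± 122, and did not pass (log2 fold change -0.06, 95% interval -0.13 to 0.02, edgeR adjusted p = 0.28), although the groups did not overlap. *Slc7a2* (chr8:40862396-40922308, plus strand) had 13.6, 45.3 and 20.2 normalized counts in Ahr+/+ against 169.9, 149 and 55.6 in Ahr-/- libraries. It had the largest change of those that passed, 4.60-fold higher (log2 fold change 2.20, SE 0.44, edgeR adjusted p = 0.0035), and was the only one of the 11 with a log2 fold change above 1 in size. The third Ahr-/- library was close to the highest Ahr+/+ library. The estimate ran from 1.87 to 2.86 when single libraries were left out, being highest without Ahr+/+ replicate 2, and the call was lost with the robust form of the test (adjusted p = 0.10).

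Since *Slc7a2* is a macrophage gene, its values were set beside 8 monocyte and macrophage markers, all of which had counts. The sum of these markers ran from 1195 to 1472 in Ahr+/+ and from 601 to 1080 in Ahr-/- libraries, and 1 of the 8 was higher and 1 lower at an adjusted p under 0.05 (25% called, against 17.9% of all genes tested). *Adgre1*, which encodes F4/80, was the marker that fell, with 649.7 ± 14.7 normalized counts in Ahr+/+ against 54.1 ± 16.1 in Ahr-/- libraries. Without it, a choice made after the values were seen, the other 7 markers summed to 541, 809.9 and 701 normalized counts in Ahr+/+ against 776, 1016.5 and 565 in Ahr-/- libraries, and the genotypes overlapped. *Lyz2* had 58.3, 201 and 130.3 normalized counts in Ahr+/+ against 187, 359.7 and 80.2 in Ahr-/- libraries. *Cd14*, the marker that rose, had 6.80, 11.1 and 3.37 in Ahr+/+ and 39.5, 19.9 and 14.6 in Ahr-/- libraries. *Slc7a2* was lowest of its group in the first Ahr+/+ and the third Ahr-/- library. Of the 8 markers, 8 were lowest in the same Ahr-/- library and 5 in the same Ahr+/+ library, with the other 3 lowest in the third Ahr+/+ library. The part of such cells in the difference of *Slc7a2* was not tested.

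**Figure D4:**
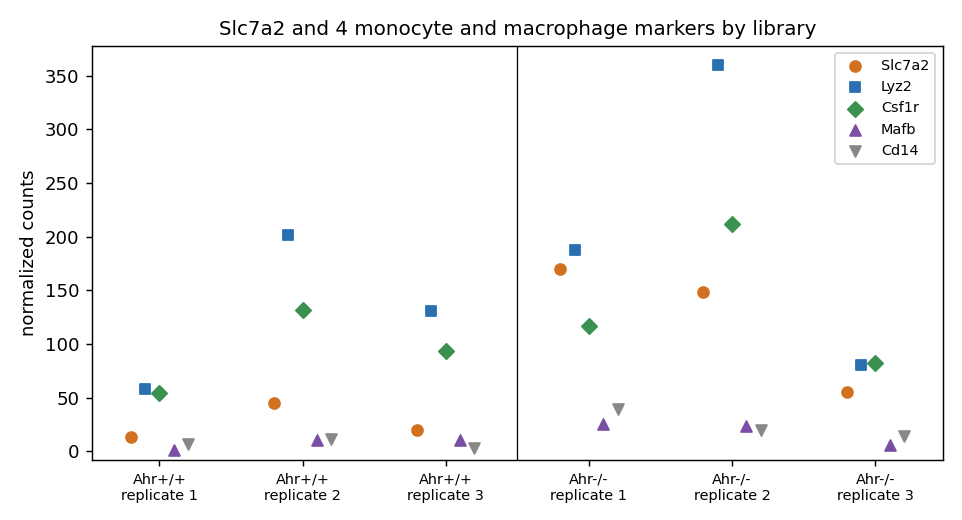
Normalized counts (vertical axis) of *Slc7a2* and of 4 monocyte and macrophage markers in each of the 6 libraries (horizontal axis). *Slc7a2* is highest in the first Ahr-/- library at 169.9, where *Lyz2* stands at 187, while *Lyz2* is highest in the second at 359.7, where *Slc7a2* stands at 149.

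The y+L exchangers, which trade cationic for neutral amino acids, also use the heavy chain of *Slc3a2*. *Slc7a6* did not pass, at 35.2 ± 1.24 RPKM in Ahr+/+ and 35.1 ± 0.813 RPKM in Ahr-/- cells (log2 fold change -0.01, 95% interval -0.09 to 0.08, edgeR adjusted p = 0.94). *Slc7a7* (chr14:54369442-54417780, minus strand), mutated in lysinuric protein intolerance and well known from monocytes, had 113, 109.7 and 149 normalized counts in Ahr+/+ against 196, 216 and 163 in Ahr-/- libraries. It rose 1.56-fold (log2 fold change 0.64, SE 0.15, edgeR adjusted p = 0.011), with a narrow distance between the third Ahr+/+ and the third Ahr-/- library. The adjusted p was 0.053 without Ahr+/+ replicate 2 and 0.069 without Ahr-/- replicate 2. Per *Slc3a2* count, the 4 light chain genes of system L and y+L, *Slc7a5*, *Slc7a6*, *Slc7a7* and *Slc7a8*, together gave 1.16 ± 0.0249 in Ahr+/+ and 1.31 ± 0.0203 in Ahr-/- cells, without overlap (exact permutation test, p = 0.1). *Slc7a6* alone was at 0.369 ± 0.0184 against 0.40 ± 0.0075 of *Slc3a2*, again without overlap (exact permutation test, p = 0.1).

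**Figure D5:**
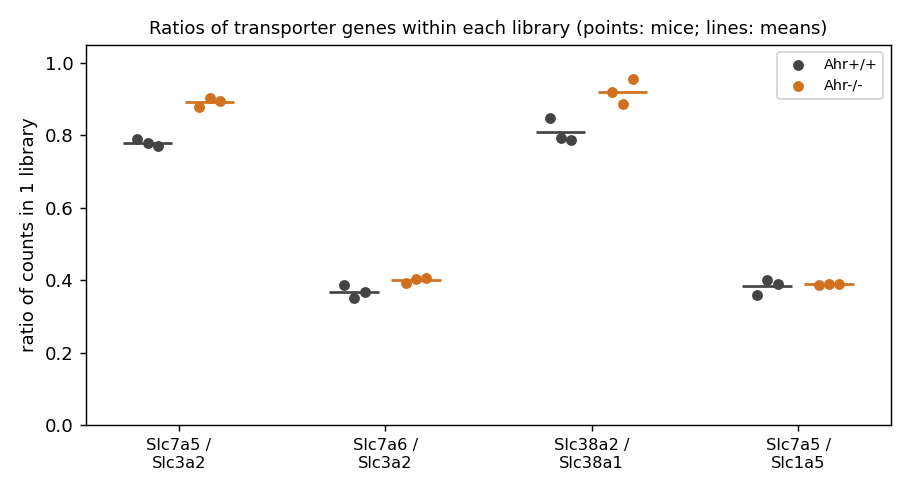
Ratio of the counts of a pair of transporter genes within each library (vertical axis, starting at 0), with 1 point per library and a line at the mean of each genotype. *Slc7a5* per *Slc3a2* moves from a mean of 0.779 to 0.891 and *Slc38a2* per *Slc38a1* from 0.809 to 0.92, whereas *Slc7a5* per *Slc1a5* overlaps, at 0.384 and 0.39.

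Glutamine, the main fuel of activated lymphocytes besides glucose, is carried by *Slc1a5* (ASCT2) and by the SLC38 carriers. *Slc1a5* (chr7:16781340-16798274) had 28017 ± 1361 normalized counts in Ahr+/+ against 28862 ± 281 in Ahr-/- cells and did not pass (log2 fold change 0.04, 95% interval -0.04 to 0.13, edgeR adjusted p = 0.51). *Slc38a1* (SNAT1, chr15:96571418-96642913, minus strand) had 14551, 14039 and 15138 normalized counts in Ahr+/+ against 12565, 13286 and 13188 in Ahr-/- libraries. It fell by 10.7% without overlap (log2 fold change -0.16, SE 0.039, edgeR adjusted p = 0.012), and the adjusted p was 0.066 without Ahr+/+ replicate 3. *Slc38a2* (SNAT2, chr15:96687392-96699730, minus strand), its neighbour on the chromosome and the form raised by amino acid shortage, had a log2 fold change of 0.02 (95% interval -0.08 to 0.12, edgeR adjusted p = 0.79). Within a library, *Slc38a2* was at 0.848, 0.792 and 0.787 of *Slc38a1* in Ahr+/+ cells and at 0.92, 0.886 and 0.956 in Ahr-/- cells (exact permutation test, p = 0.1). *Slc7a5* per *Slc1a5* gave 0.384 ± 0.0217 and 0.39 ± 0.0017 and overlapped (exact permutation test, p = 1).

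Lysosomal carriers export amino acids from the site where mTORC1 is switched on. *Slc38a7* (SNAT7, chr8:95835920-95853539, minus strand), a lysosomal glutamine and asparagine exporter, had 792, 954 and 867 normalized counts in Ahr+/+ against 1126, 1083 and 1083 in Ahr-/- libraries. It rose 1.26-fold without overlap (log2 fold change 0.33, SE 0.065, edgeR adjusted p = 0.0032). *Slc36a4* (chr9:15709738-15743361, plus strand), a high-affinity carrier of proline and tryptophan, had 53.4, 57.35 and 53.9 normalized counts in Ahr+/+ against 84.1, 83.2 and 93.9 in Ahr-/- libraries. It rose 1.59-fold (log2 fold change 0.67, SE 0.16, edgeR adjusted p = 0.010). The lysosomal arginine sensor gene *Slc38a9* had a log2 fold change of 0.14 (SE 0.082) and the proton-coupled carrier gene *Slc36a1* one of -0.02 (SE 0.054), and neither passed. Of all 8 SLC38 genes tested, 1 rose and 1 fell, and of 3 SLC36 genes, 1 rose, numbers too small to set against the 17.9% of all genes tested.

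Among the genes that passed the test, glycine and taurine carriers of the SLC6 family had the largest falls. *Slc6a9* (GLYT1, chr4:117834506-117875198, plus strand), the sodium- and chloride-dependent glycine carrier, had 712, 722 and 815 normalized counts in Ahr+/+ against 522, 545 and 562 in Ahr-/- libraries. Its level fell by 27.3% (log2 fold change -0.46, SE 0.067, edgeR adjusted p = 3.8e-04). *Slc6a6* (TauT, chr6:91684053-91759066, plus strand), the taurine carrier, had 5870, 5861 and 5679 normalized counts in Ahr+/+ against 4538, 4764 and 5059 in Ahr-/- libraries. Its level fell by 17.4% (log2 fold change -0.28, SE 0.044, edgeR adjusted p = 7.4e-04). The genotypes overlapped in neither gene, and both genes passed under all 14 alternatives run, of which the prior count cannot change a p. Among the other SLC6 genes tested, none passed. *Slc6a17*, a vesicular carrier of neurons, had the lowest log2 fold change, -2.67 (SE 0.90, edgeR adjusted p = 0.061), and did not overlap, but stood at 3.89, 8.05 and 2.25 normalized counts in Ahr+/+ against 1.72, 0.711 and 0 in Ahr-/- libraries, near the value of 3 counts.

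Among the glutamate and aspartate carriers, only *Slc1a2* (GLT-1, chr2:102658659-102790784, plus strand), the main glutamate carrier of astrocytes, had counts enough for a test. It had 109, 111 and 112 normalized counts in Ahr+/+ against 211, 176 and 203 in Ahr-/- libraries. The 3 Ahr+/+ libraries lay close together and all Ahr-/- libraries were well above them, 1.76-fold higher (log2 fold change 0.82, SE 0.12, edgeR adjusted p = 3.9e-04). Its level stayed low, at 0.238 ± 0.0038 RPKM in Ahr+/+ and 0.423 ± 0.0402 RPKM in Ahr-/- cells.

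The 25 tested genes that did not pass fell into 2 kinds. For 13 with a mean of 50 normalized counts or more in a genotype, log2 fold changes lay between -0.11 and 0.33. For the 12 below this level, they lay between -2.67 and 1.16 with standard errors from 0.31 to 0.92, so that changes of the size seen in *Slc43a1* or *Slc7a7* were not detectable there at this depth. In 4 of the 25 the genotypes did not overlap, namely *Slc7a5*, *Slc7a1*, *Slc38a6* and *Slc6a17*. Of the called genes, 5 overlap a gene on the opposite strand in the annotation (*Slc1a2*, *Slc6a6*, *Slc6a9*, *Slc7a2* and *Slc7a7*). The library kit keeps the strand, but whether counting used it was not given in the sources used here. Only 2 of the 58 genes, *Slc38a6* and *Slc7a15*, lie on chromosome 12 with *Ahr*, and neither was called.

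AhR binds DNA as a dimer with ARNT at the core GCGTG, so the promoters of the transporter genes were read for this motif on both strands. Windows from 250 bases before to 50 bases after a start site (RefSeq, GRCm38.p6) were at hand for 26 of the 36 tested genes, 42 windows in all. The core was present in 33.3% of these 42 windows, against 49.0% of the 12738 windows of all genes tested and 32.4% of all 32851 windows. Of the 7 called genes with a window, 2 held the core, *Slc6a9*, which fell, and *Slc36a4*, which rose. The longer form TNGCGTG, which contains the core, was in none of the 13 windows of called genes and in 7.69% of those of all genes tested. The following windows are shown because they set a gene that fell, a gene that rose and an abundant gene that did not pass side by side, each with the core in capitals (CACGC where it lies on the opposite strand), 5′ to 3′ along the gene.
Slc6a9 (chr4:117849100-117849399, plus strand, fell): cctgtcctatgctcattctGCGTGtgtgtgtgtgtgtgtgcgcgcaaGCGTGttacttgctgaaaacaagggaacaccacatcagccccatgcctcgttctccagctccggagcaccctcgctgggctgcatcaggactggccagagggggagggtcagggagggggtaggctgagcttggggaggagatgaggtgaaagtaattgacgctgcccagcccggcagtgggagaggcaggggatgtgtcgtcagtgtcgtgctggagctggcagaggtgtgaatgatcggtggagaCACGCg
Slc36a4 (chr9:15709488-15709787, plus strand, rose): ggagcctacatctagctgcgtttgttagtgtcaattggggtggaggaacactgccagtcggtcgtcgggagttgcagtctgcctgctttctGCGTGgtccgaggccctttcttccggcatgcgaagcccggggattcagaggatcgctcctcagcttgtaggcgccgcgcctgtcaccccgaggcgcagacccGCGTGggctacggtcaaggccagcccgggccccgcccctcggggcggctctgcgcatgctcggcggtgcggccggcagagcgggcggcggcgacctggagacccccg
Slc7a6 (chr8:106168604-106168903, plus strand, did not pass): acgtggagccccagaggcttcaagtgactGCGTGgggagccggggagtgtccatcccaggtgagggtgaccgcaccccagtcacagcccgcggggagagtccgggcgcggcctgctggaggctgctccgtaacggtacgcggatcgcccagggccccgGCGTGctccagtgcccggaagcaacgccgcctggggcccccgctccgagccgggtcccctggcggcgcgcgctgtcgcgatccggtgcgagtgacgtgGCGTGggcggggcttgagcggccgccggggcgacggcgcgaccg

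The *Slc6a9* window holds 3 cores, at positions -231, -203 and 44 from the start site, and its other 2 windows hold 1 core each. *Slc36a4* holds 2, at -159 and -57. *Slc7a6*, with a log2 fold change of -0.01, holds 3 in the window shown, at -221, -92 and 6. The heavy chain gene *Slc3a2*, which fell, had no core in the window below, nor did *Slc43a1*, which rose. Both windows lie within the annotated gene and not at its 5′ end, which was not read for the core. A match of these letters is a description of the window and not a binding site.
Slc3a2 (chr19:8713848-8714147, minus strand, fell): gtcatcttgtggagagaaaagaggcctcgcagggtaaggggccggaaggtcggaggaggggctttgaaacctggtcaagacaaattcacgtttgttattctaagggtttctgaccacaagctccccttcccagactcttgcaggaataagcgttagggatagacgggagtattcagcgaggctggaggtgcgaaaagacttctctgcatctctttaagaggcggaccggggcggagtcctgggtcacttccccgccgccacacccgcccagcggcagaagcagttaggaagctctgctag
Slc43a1 (chr2:84840073-84840372, plus strand, rose): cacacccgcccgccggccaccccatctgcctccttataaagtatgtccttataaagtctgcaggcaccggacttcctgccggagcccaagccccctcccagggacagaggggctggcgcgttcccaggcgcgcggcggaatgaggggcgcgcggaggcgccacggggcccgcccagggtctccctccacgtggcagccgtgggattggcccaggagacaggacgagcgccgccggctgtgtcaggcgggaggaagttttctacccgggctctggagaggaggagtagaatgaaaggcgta

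Amino acid shortage acts on several carrier genes by the transcription factor ATF4 at C/EBP-ATF composite elements, here searched as TGATGNAA on both strands. This was in 3 of the 42 windows of tested transporter genes (7.14%), belonging to 2 genes, and in 2.43% of the windows of all genes tested. Overlapping windows of *Slc7a7* share the match at chr14:54417938-54417945, so that 1 site is counted in more than 1 window. The motif was found in *Slc7a7*, which rose, and in *Slc1a4*, which had a log2 fold change of 0.01 (SE 0.065) and did not pass.
The *Slc7a7* window that holds it at 2 positions is shown with it in capitals.
Slc7a7 (chr14:54417895-54418194, minus strand, rose): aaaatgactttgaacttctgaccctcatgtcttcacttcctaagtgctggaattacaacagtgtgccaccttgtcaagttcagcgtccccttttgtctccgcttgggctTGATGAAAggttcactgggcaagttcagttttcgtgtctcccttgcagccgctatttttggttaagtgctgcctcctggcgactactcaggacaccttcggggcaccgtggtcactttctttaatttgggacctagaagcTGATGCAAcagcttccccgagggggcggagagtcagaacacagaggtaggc

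Other genes of amino acid handling gave calls in both directions. Of 38 genes of amino acid sensing and mTORC1, 3 rose and 4 fell, or 18.4%, which is near the 17.9% of all genes tested. *Itfg2*, of the KICSTOR complex that holds the inhibitor GATOR1 on lysosomes, fell by 0.21 on the log2 scale (edgeR adjusted p = 0.0041), and *Seh1l*, of GATOR2, fell by 0.14 (edgeR adjusted p = 0.014). Of 32 tested genes of the amino acid response and of amino acid synthesis, 3 rose and 6 fell, or 28.1% against 17.9% of all genes tested. *Ddit4*, which encodes the mTORC1 inhibitor REDD1, fell from 2421 ± 136 to 692 ± 56.4 normalized counts (log2 fold change -1.80, edgeR adjusted p = 1.1e-09). *Bcat1*, the cytosolic enzyme that transaminates leucine, isoleucine and valine, fell from 5788 ± 251 to 3717 ± 121 (log2 fold change -0.64, edgeR adjusted p = 6.0e-07).

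Of 13 tested genes of tryptophan breakdown, 3 rose and 2 fell, or 38.5% against 17.9% of all genes tested. *Kmo*, kynurenine 3-monooxygenase, rose from 1276 ± 63.7 to 1958 ± 119 normalized counts (log2 fold change 0.61, edgeR adjusted p = 5.4e-06). *Ido2*, a low-activity enzyme of the first step, fell from 15.5, 19.1 and 13.5 normalized counts in Ahr+/+ libraries to 1 count in each Ahr-/- library (edgeR adjusted p = 2.0e-04). Of 21 tested carriers of amino acids and peptides that are not among the 58 genes (*Slc6a20a* of the SLC6 family included), 5 rose and none fell at an adjusted p under 0.05, or 23.8% against 17.9% of all genes tested. The genotypes did not overlap in 33.3% of these carriers and in 33.5% of all genes tested. *Slc25a13*, the mitochondrial aspartate and glutamate carrier, had 134, 168 and 177 normalized counts in Ahr+/+ against 295, 345 and 255 in Ahr-/- libraries (log2 fold change 0.91, edgeR adjusted p = 4.4e-04). *Pqlc2*, the lysosomal exporter of cationic amino acids, rose from 389.8 ± 6.73 to 498 ± 7.81 (log2 fold change 0.35, edgeR adjusted p = 0.0019).

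Markers of other cell types were read in the same fit, in which 9.79% of all genes tested were higher and 8.13% lower in Ahr-/- cells. Of 9 plasmacytoid dendritic cell markers, 7 rose, and their sum ran from 4020 to 4628 in Ahr+/+ and from 5194 to 6235 normalized counts in Ahr-/- libraries. Of 8 conventional dendritic cell markers, 4 rose and 1 fell, with sums from 819.8 to 937 and from 882 to 1073. Of 5 NK cell markers 2 rose, of 4 plasma cell markers 2 fell, of 8 T cell markers 2 fell (25% called, against 17.9% of all genes tested), and of 5 neutrophil markers tested none passed. None of the markers named in these lists was at 0 in all libraries, except among those of red cells. Over all marker lists except that of B cells, 14 genes rose and 6 fell, and without Ahr-/- replicate 3 these were 22 and 6. The part of these cells in the transporter differences was not tested.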

How the data were processed

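Polyadenylated RNA of 6 B-cell cultures was sequenced from strand-keeping libraries. The deposited values used here are whole-number counts of reads for each gene symbol, made by the authors, and the submitters' processing notes name TopHat2, HTSeq, DESeq and the mm10 build. The annotation and the strand setting of the counting were not given in the sources used here. Size-factor scaled counts and a table of the authors' own genotype comparison (fold changes and p-values) were not used.

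A gene entered the test when its counts summed to 10 or more, in R 4.3.3 with edgeR 4.0.16 (TMM factors, quasi-likelihood F test, genotype as the only term, prior count 0.125). P-values were adjusted by Benjamini-Hochberg over all genes tested, and 0.05 was the threshold. The standard error is the absolute log2 fold change over the square root of F, and the 95% intervals use it. Libraries were 22095096 to 53648787 counts deep, and the common biological coefficient of variation was 0.0476. Counting error only is covered by the floor of 3 counts per library. Replicates were compared pairwise by chi-square per degree of freedom, which was 3.96 to 9.24 within and 25.3 to 45.2 between genotypes, so none was a repeat of another. Exon lengths for RPKM, positions and overlaps come from GENCODE M21 (GRCm38, the same assembly as mm10), in which all 58 genes were found by symbol. The script was tested on simulated data with known changes.

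Named with values were the genes past the threshold, *Slc7a5* and *Slc3a2*, the 5 highest by RPKM that did not pass, and at most 2 genes of each pathway list. Genes named beside these (*Slc7a8*, *Slc43a2*, *Slc38a9*, *Slc36a1*, *Slc6a17*, *Slc38a6*, *Slc7a15*, *Slc1a4* and the monocyte and macrophage markers) were chosen after their values were seen. The transporter genes and lists were chosen with earlier results of these data known. Alternatives were another scaling (DESeq2 1.42.0 size factors, or library size alone), filter, prior count, threshold, the DESeq2 Wald test, the robust quasi-likelihood test, a replicate block and leaving out each library.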

Additional observations from a re-analysis of the deposited data

How the results depend on the processing

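The number of transporter genes called was 11 with DESeq2 size factors, without a filter, with at least 10 counts in at least 3 libraries, with the DESeq2 Wald test and with the replicate block, and the same 11 genes passed in each. It was 10 with library size alone (*Slc3a2* lost) and with the robust test (*Slc7a2* lost), and 9 to 12 when single libraries were left out. At an adjusted p under 0.01, 7 transporter genes passed, with 1473 of all genes and 13 of the pathway lists. Pathway lists gave 15 to 29 calls when single libraries were left out, against 26, with 16 without Ahr+/+ replicate 2, 15 without Ahr+/+ replicate 3 and 16 without Ahr-/- replicate 2. Marker lists, leaving out that of B cells, gave 16 to 28 calls, against 20, with the most without Ahr-/- replicate 3. All genes gave 1664 to 2601 calls in this way. With library size alone, all genes split into 1621 higher and 919 lower, against 1340 and 1113, and the median of all genes moved to 0.027 on the log2 scale.

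Of 224 values (16 genes under 14 alternatives), 210 kept their direction and side of the threshold, 8 were no longer past it and 6 changed sign. Among the 210 are 16 values with a prior count of 2, which changes the fold change but cannot change a p. All 6 were of genes that never passed. *Slc38a2* went to -0.0186 without Ahr+/+ replicate 2 and -0.0174 without Ahr-/- replicate 3 (range -0.0186 to 0.0566). *Slc7a6* went to 0.0191 with library size alone, 0.0152 without Ahr+/+ replicate 1, 0.0053 without Ahr-/- replicate 1 and 0.0026 without Ahr-/- replicate 2 (range without single libraries -0.0346 to 0.0152). The cause was not tested. No pairing by replicate number was seen: deviations of same-numbered samples correlated at r = -0.030, 0.12 and -0.045, and not every sample correlated best with its own number. With 3 samples per genotype, such correlations cannot exclude that the samples were paired. The replicate block gave 2303 calls over all genes. Counts were few for the 12 scarce genes tested, and whether depth or absent expression kept the other 22 from being tested was not examined.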
